A study of Mus musculus with 8 samples.

Results

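Histone H3 acetylated at lysine 27 (H3K27ac), which marks active promoters and enhancers, was examined at 43 genes of cholesterol, fatty acid and sphingolipid synthesis among the 21951 protein-coding genes of the mouse. The genes were listed by symbol for their place in these pathways, with earlier results of these data known, and all 43 were found in the annotation. They fall into 5 roles, with 8 genes of the mevalonate route, 12 of the later sterol steps, 6 regulators and carriers of sterol, 9 of fatty acid synthesis and 8 of sphingolipid synthesis. Chromatin came from Oli-neu, a mouse line of embryonic oligodendrocyte progenitor origin (strain C57BL/6) that was immortalised with an oncogene, so each value describes 1 line and not oligodendrocytes in tissue. Proliferating cells were kept in DMEM with N2, T3, L-thyroxine, bFGF and Pdgf-BB. Differentiating cells were given medium without growth factors and 1 µM of the erb inhibitor PD174265, for 1 day by the sample labels and for longer by the culture methods of the study. Each state has 1 library, and the 6 ATAC-seq samples of the series were not analysed here.

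Cholesterol is assembled from acetyl-CoA through mevalonate and squalene, and the enzymes of this route are switched on together by SREBP transcription factors when sterol in the endoplasmic reticulum is low. Fatty acid synthase and the desaturases and elongases behind it supply acyl chains, and sphingolipid enzymes join such chains to serine to form ceramide. Oligodendrocytes turn ceramide into galactosylceramide and sulfatide, the lipids that, with cholesterol, make up much of the myelin membrane.

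The deposited lists hold 28924 peaks for proliferating and 27965 for differentiating cells. The lists hold no number of reads for a peak, so no counting error can be given, and with 1 library per state no difference between the states could be tested. Each peak carries a fold enrichment (a ratio over the background of the peak caller) and a −log10 q. The percentile of a peak is the share of peaks of its own list with a lower −log10 q, and percentiles and fold enrichments of different lists are shown side by side only. As a check of the cell type, the oligodendrocyte lineage genes Sox10, Olig1 and Olig2 had a promoter peak in both lists. Over all protein-coding genes, 17.6% had one in both. In each list the peaks of Sox10, Olig1 and Olig2 stood at percentile 73.6 or higher. Their fold enrichments were below the list medians, 3.33 in proliferating and 3.13 in differentiating cells. Nkx2-2, Pdgfra, Cspg4, Mbp and Cnp had no promoter peak in either list. Of these, Cspg4 and Cnp had a peak within 1000 bp of the transcription start site in both lists. Olig2 had a peak within that distance in proliferating cells alone. Among 17 markers of astrocytes, neurons, microglia and endothelium, Slc1a3 and Gja1 had a promoter peak in proliferating and Syt1 in differentiating cells. The percentiles were 1.56 for Slc1a3, 29.3 for Gja1 and 78.0 for Syt1. Slc1a3 and Gja1 had no peak within 1000 bp of the start site in either list, whereas the Syt1 peak covered it.

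Most of the lipid genes carried H3K27ac at the promoter. A promoter region was counted as the 3000 bp before the transcription start site (TSS) and the 100 bp after it. In proliferating cells 29 of the 43 genes (67.4%) had a peak there, against 23.7% of all protein-coding genes. In differentiating cells 26 genes (60.5%) had one, against 27.7%. Both lists held a promoter peak for 24 genes (55.8%, background 17.6%) and at least 1 list for 31 (72.1%, background 33.8%). Within 1000 bp on either side of the TSS, 31 genes had a peak in each list, against 26.9% and 31.1% of all genes, with 34 in at least 1 list (background 36.4%) and 28 in both (21.6%). The gene body held a peak for 40 genes in proliferating and 35 in differentiating cells, against 41.9% and 43.5%. In at least 1 list 40 genes had a body peak, against 52.5%, and 35 had one in both lists, against 32.9%. The median gene length was 19707 bp for the lipid genes and 17403 bp for all genes. These shares are descriptions of 1 library each, and no chance level was computed for the list.

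**Figure D1:**
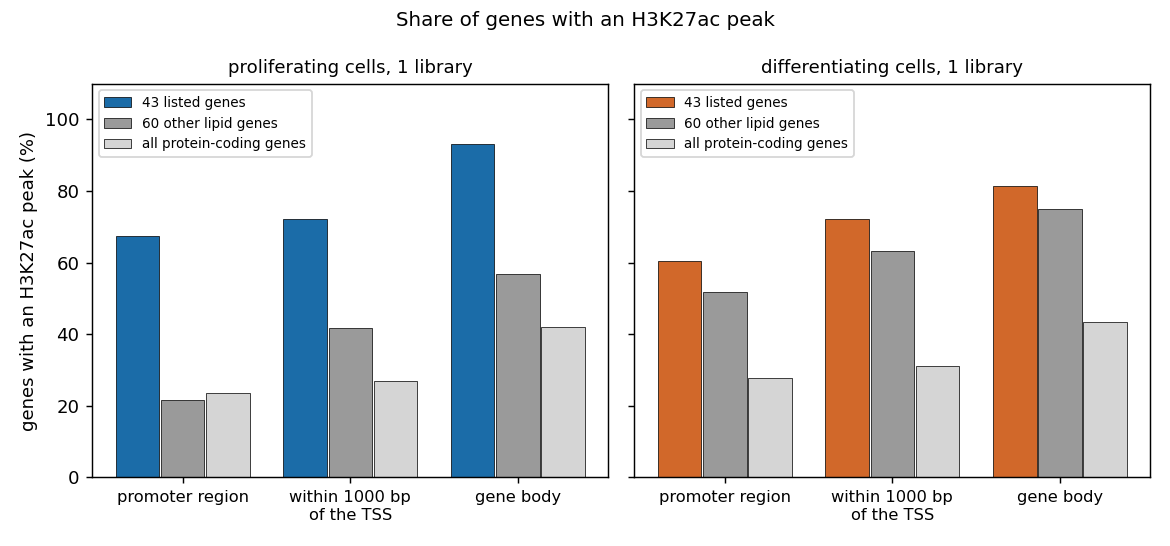
Bars give the percent of genes with an H3K27ac peak in the promoter region, within 1000 bp of the TSS or in the gene body, in proliferating (left) and differentiating (right) cells with 1 library each, for the 43 lipid synthesis genes (coloured), 60 other lipid genes (dark grey) and all 21951 protein-coding genes (light grey). The coloured bar is the highest of the 3 in each region and state, and for promoter regions the other lipid genes stood at 21.7% in proliferating and 51.7% in differentiating cells.

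Many of the peaks lay close to the start of transcription. From the TSS to the nearest peak the median distance was 56 bp in proliferating and 65 bp in differentiating cells, against 17426 bp and 15682 bp over all genes. A peak covered the TSS itself in 17 and 21 of the 43 genes, against 16% and 20.4% of all genes. These backgrounds include the many genes without a peak nearby. Among genes with a promoter peak, a peak covered the TSS in 58.6% of lipid genes and 67.2% of all genes in proliferating cells. In differentiating cells these shares were 80.8% and 73.4%. By −log10 q, the promoter peaks of the lipid genes ranked higher than those of all genes in proliferating cells. Of the 29 genes, 17 had a peak in the strongest 10% of the list, against 28.5% of the 5212 genes with a promoter peak. In differentiating cells 8 of 26 did, against 26.2% of 6085. Median widths were 1119 bp and 1234.5 bp, against 873 bp and 924 bp for all genes with a promoter peak, while the median fold enrichments were 3.58 and 3.50, against 3.62 and 3.42.

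**Figure D2:**
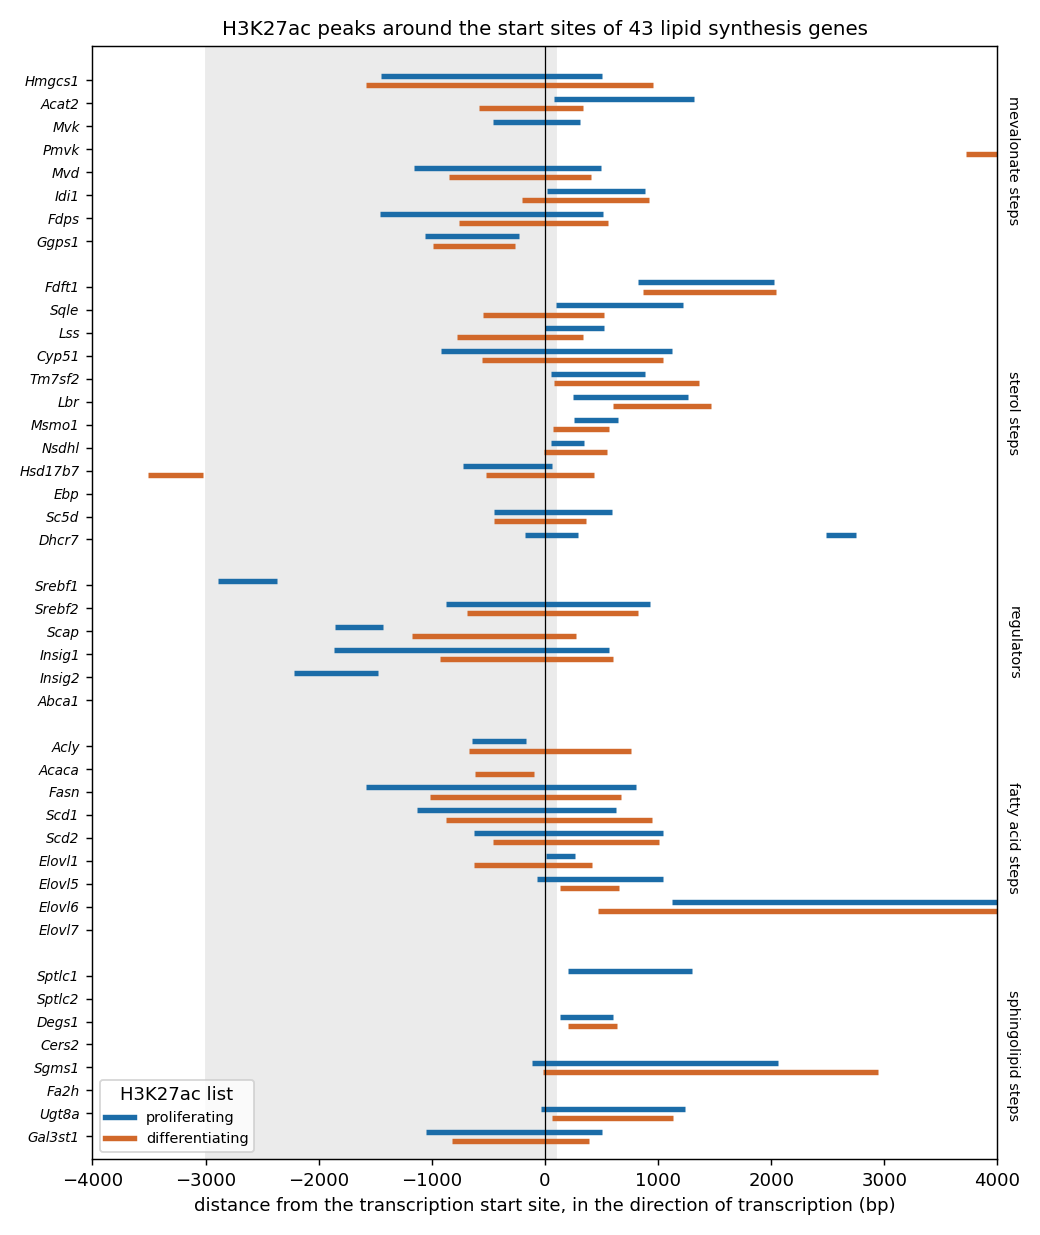
Each row is a lipid gene and each bar an H3K27ac peak, drawn by its distance from the TSS in bp in the direction of transcription (blue, proliferating; orange, differentiating; grey, the promoter region counted), and bars that pass 4000 bp are clipped there. Many genes have bars over or next to the TSS in both lists. Fdft1, Lbr and Degs1 show peaks that begin past the grey region, those of Fdft1 at 821 bp and 870 bp. Ebp, Abca1, Elovl7, Sptlc2, Cers2 and Fa2h show none.

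In each role, the gene with the highest lower percentile of the 2 lists was chosen to show the promoter, among genes with a promoter entry in RefSeq. The 250 bases before the RefSeq start site are printed 5′ to 3′ on the strand of the gene (GRCm38.p6), to show the bases under or next to these peaks. Capitals mark matches, on either strand, to CCAAT (the box bound by NF-Y) and to GGGCGG (the box bound by Sp1), and neighbouring matches can overlap.
Idi1: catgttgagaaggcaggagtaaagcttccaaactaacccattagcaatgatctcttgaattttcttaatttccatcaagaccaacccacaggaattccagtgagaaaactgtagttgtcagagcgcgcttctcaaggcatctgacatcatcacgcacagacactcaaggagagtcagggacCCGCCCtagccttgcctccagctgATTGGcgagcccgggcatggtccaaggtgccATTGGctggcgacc
Sc5d: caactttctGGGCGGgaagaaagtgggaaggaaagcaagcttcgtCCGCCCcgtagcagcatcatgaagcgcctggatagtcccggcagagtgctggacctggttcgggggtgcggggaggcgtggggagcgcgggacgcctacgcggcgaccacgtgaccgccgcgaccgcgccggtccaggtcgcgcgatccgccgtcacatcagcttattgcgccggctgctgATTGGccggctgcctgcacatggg
Insig1: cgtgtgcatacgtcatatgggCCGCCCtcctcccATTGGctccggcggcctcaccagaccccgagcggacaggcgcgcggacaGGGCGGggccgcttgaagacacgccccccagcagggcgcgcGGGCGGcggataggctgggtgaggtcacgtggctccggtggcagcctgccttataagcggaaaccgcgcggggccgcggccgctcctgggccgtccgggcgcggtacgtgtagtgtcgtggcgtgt
Fasn: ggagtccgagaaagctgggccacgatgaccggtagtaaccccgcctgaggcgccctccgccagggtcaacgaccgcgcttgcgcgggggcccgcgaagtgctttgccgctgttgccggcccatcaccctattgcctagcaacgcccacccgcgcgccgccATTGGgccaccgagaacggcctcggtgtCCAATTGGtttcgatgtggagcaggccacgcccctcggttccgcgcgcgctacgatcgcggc
Ugt8a: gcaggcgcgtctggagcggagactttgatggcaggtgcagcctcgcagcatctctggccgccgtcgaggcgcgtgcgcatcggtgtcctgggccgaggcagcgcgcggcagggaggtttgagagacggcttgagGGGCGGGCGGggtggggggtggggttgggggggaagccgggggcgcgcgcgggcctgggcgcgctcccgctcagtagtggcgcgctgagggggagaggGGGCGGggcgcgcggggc
These stretches are chr13:8885356-8885605 for Idi1, chr9:42264301-42264550 for Sc5d, chr5:28071162-28071411 for Insig1, chr11:120824548-120824797 for Fasn and chr3:125938653-125938902 for Ugt8a. The peaks of both lists covered all 250 bases for Sc5d, Insig1 and Fasn. For Idi1 the proliferating peak covered 83 bases and the differentiating peak all of them. The RefSeq start of Idi1 lies 105 bp past the GENCODE TSS from which peaks were measured. Those 83 bases and the capitals of Idi1 thus lie past that TSS. For Insig1 the RefSeq start lies 49 bp past it, and the capitals lie before it. For Ugt8a neither peak reached into the stretch, since both began at or past its end and ran into the gene. Scd2 ranked above Fasn.

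Of the 8 mevalonate genes, 7 had a promoter peak in proliferating and 6 in differentiating cells. Hmgcs1 (ENSMUSG00000093930), which makes the HMG-CoA from which mevalonate is formed, had a peak over the TSS in both lists, at 119688929 to 119690885 on chromosome 13 in the proliferating list and at 119688794 to 119691335 in the other. Its fold enrichment was 3.31 and 2.83, and its percentile 86.4 and 47.5. Idi1, which isomerises isopentenyl diphosphate, had fold enrichments of 4.79 and 3.89 at percentiles 95.9 and 88.4. Fdps, the farnesyl diphosphate synthase, had 3.80 and 3.77 at percentiles 94.9 and 87.7, and Mvd, the last decarboxylase of the route, had 3.80 and 3.84 at percentiles 88.2 and 87.8. The ranks of these 3 genes thus lay closer together in the 2 lists than those of Hmgcs1.

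Ggps1, which makes geranylgeranyl diphosphate for protein prenylation, and Acat2, the cytosolic acetoacetyl-CoA thiolase, ranked higher in the differentiating list. The Ggps1 peak stood at percentile 32.3 in proliferating and 84.6 in differentiating cells, and the Acat2 peak at 68.7 and 81.1. Mvk, mevalonate kinase, had a peak over the TSS in proliferating cells alone, with a fold enrichment of 4.58 at percentile 93.1, and the nearest peak of differentiating cells lay 22121 bp away. This Mvk peak also covered the TSS of Mmab, which starts 209 bp away on the other strand, so the mark cannot be assigned to 1 of the 2 genes. Pmvk, phosphomevalonate kinase, had no promoter peak, and the nearest peaks began 4616 bp and 3723 bp downstream of its TSS.

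Of the 12 genes of the sterol steps, 8 had a promoter peak in each list and 7 in both. Sqle, squalene epoxidase and a rate-limiting enzyme of the route, had the highest-ranked promoter peak among the 43 genes in proliferating cells, with a fold enrichment of 4.84 and −log10 q of 10.3 (percentile 99.2, chromosome 15 from 59315172 to 59316295). In differentiating cells its peak had a fold enrichment of 3.11 and −log10 q of 2.97 (percentile 80.2). Lss, which closes squalene epoxide to lanosterol, had 4.71 at percentile 98.2 in the proliferating list and 3.20 at percentile 76.8 in the differentiating list. Cyp51, the lanosterol demethylase, had 4.11 and 3.44 at percentiles 96.2 and 79.0. In all 3 genes the proliferating peak was among the strongest 10% of its list and the differentiating peak was not.

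Nsdhl, Tm7sf2 and Hsd17b7, which act on the sterol ring after Cyp51, showed the same order. Their percentiles were 94.7 and 71.8 for Nsdhl, 91.2 and 70.9 for Tm7sf2, and 82.0 and 65.0 for Hsd17b7. Sc5d, the sterol desaturase, had the highest fold enrichment of a promoter peak among the 43 genes in proliferating cells, 5.03, with 4.04 in differentiating cells (percentiles 98.5 and 95.1). The peaks of Nsdhl also lay in the promoter region of Cetn2, whose TSS is 146 bp away. Dhcr7, the last reductase before cholesterol, had a promoter peak in proliferating cells alone, at percentile 57.6, and this peak also lay in the promoter region of Nadsyn1.

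The highest fold enrichment among the nearest peaks of the 43 genes that lie within 1000 bp of a TSS was that of Msmo1, the sterol C4 methyl oxidase, in proliferating cells, and this peak lay outside the promoter region as counted. It ran from 253 bp to 648 bp past the TSS with a fold enrichment of 7.01 (percentile 99.3). In differentiating cells a peak with a fold enrichment of 3.35 (percentile 66.3) began 73 bp past the TSS, so Msmo1 was counted in the differentiating list alone although both lists held a peak within 1000 bp of its TSS. Fdft1, squalene synthase, and Lbr, a sterol reductase of the nuclear envelope, had no promoter peak as counted in either list, and their nearest peaks also lay past the TSS. The Fdft1 peaks began 821 bp and 870 bp past the TSS at percentiles 95.9 and 84.2, and those of Lbr 251 bp and 599 bp past it at percentiles 97.3 and 96.7. Ebp, the sterol isomerase, was the only gene of the sterol steps without a peak within 1000 bp of the TSS in either list, and it lies on the X chromosome, where the nearest peaks were 619205 bp and 59999 bp away.

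Among the 6 regulators and carriers, Srebf2 and Insig1 had promoter peaks that ranked high by −log10 q in both states. The median fold enrichment of all peaks was 3.33 in the proliferating and 3.13 in the differentiating list. By that measure the proliferating Insig1 peak was below the median of its list. Srebf2 encodes the SREBP that mainly drives cholesterol genes, and its peak over the TSS on chromosome 15 had a fold enrichment of 3.42 in proliferating and 3.31 in differentiating cells (percentiles 98.1 and 95.3). Insig1 encodes the protein that holds SREBP back in the endoplasmic reticulum. Its peak had a fold enrichment of 3.21 at −log10 q of 6.10 in proliferating cells (28069497 to 28071930 on chromosome 5) and 4.16 at −log10 q of 12.5 in differentiating cells (28070439 to 28071968), the highest-ranked promoter peak of the 43 genes in that list, at percentile 99.3. Scap, the escort of SREBP, had weak peaks in both lists, at percentiles 8.49 and 31.2, and these did not overlap each other. Srebf1 and Insig2 had a promoter peak in proliferating cells alone, which ended 2368 bp and 1476 bp upstream of the TSS at percentiles 26.7 and 59.5. Both lists also held a peak on an exon of Insig2. It began 4165 bp past the TSS in proliferating and 4175 bp past it in differentiating cells, at percentiles 79.0 and 80.4. Abca1, which exports cholesterol from cells, had no peak in its promoter or body in either list, and the nearest ones lay 104291 bp and 59043 bp away.

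Of the 9 fatty acid genes, 6 had a promoter peak in each list and 5 in both. Fasn, fatty acid synthase, had peaks over the TSS with fold enrichments of 3.40 and 3.29 (percentiles 98.0 and 96.4). Scd2, the stearoyl-CoA desaturase that prevails in brain, had 3.58 and 3.74 (percentiles 98.5 and 98.0), and its neighbour Scd1 on chromosome 19 had 4.10 and 3.15 (percentiles 98.2 and 84.4). By percentile, Fasn and Scd2 were thus near the top of both lists, while Scd1 ranked lower in differentiating cells. Acly, which supplies cytosolic acetyl-CoA from citrate, was the reverse, with 3.26 at percentile 59.3 in proliferating and 3.68 at percentile 92.4 in differentiating cells. Its proliferating peak ended 164 bp before the TSS, whereas the differentiating peak ran across it.

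Acaca, the acetyl-CoA carboxylase that commits carbon to fatty acids, had a promoter peak in differentiating cells alone (fold enrichment 3.80, percentile 87.2), which ended 99 bp before its TSS. The same peak overlapped the promoter region of Tada2a, with its TSS 72 bp away on the other strand. Within Acaca, both lists shared a peak on an exon that began 49256 bp and 49254 bp past the TSS, with fold enrichments of 4.36 and 3.57 (percentiles 98.0 and 93.0). The elongases were marked unevenly. Elovl1, which extends very long chains, had weak peaks at percentiles 51.2 and 34.4, and Elovl5, which extends polyunsaturated chains, had a promoter peak in proliferating cells at percentile 57.2 and, in differentiating cells, a peak outside the promoter region at percentile 91.7 that began 135 bp past the TSS. Elovl6 had the widest of the peaks in the bodies of the 43 genes, 3601 bp and 4186 bp, in introns. Elovl7 had no peak within 1000 bp of its TSS in either list.

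Of the 8 sphingolipid genes, 3 (37.5%) had a promoter peak, each of them in both lists. Over all genes, 33.8% had one in at least 1 list and 17.6% in both. Within 1000 bp of the TSS, 5 of the 8 had a peak in proliferating and 4 in differentiating cells, against 26.9% and 31.1% of all genes. Ugt8a, which adds galactose to ceramide, had a fold enrichment of 4.26 at percentile 92.0 in proliferating and 4.31 at percentile 97.6 in differentiating cells, with −log10 q of 4.02 and 6.84. Gal3st1, which sulfates galactosylceramide to sulfatide, had 3.63 at percentile 91.1 and 3.78 at percentile 98.1, with −log10 q of 3.87 and 7.46. Sgms1, a sphingomyelin synthase, had 3.79 at percentile 91.3 and 3.02 at percentile 80.6. The enzymes of the last steps to the myelin galactolipids ranked higher in the differentiating list, and Sgms1 in the proliferating list.

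The other sphingolipid genes of the 43 had no promoter peak in either list. Sptlc1 and Sptlc2 encode subunits of serine palmitoyltransferase, the entry enzyme. Sptlc1 had a weak peak 205 bp past the TSS in proliferating cells (percentile 18.5) and no peak in the gene in differentiating cells, and for Sptlc2 the nearest peaks were intronic, 34637 bp and 15766 bp past the TSS. Degs1, which desaturates dihydroceramide, had peaks 131 bp and 205 bp past the TSS at percentiles 69.9 and 92.3. Cers2, a ceramide synthase for very long chains, had 1 exonic peak in proliferating cells, and its nearest differentiating peak lay 31350 bp upstream. Fa2h, which hydroxylates the acyl chain of myelin galactolipids, had intronic peaks only, the nearest 18163 bp and 17654 bp past the TSS, the latter at percentile 86.8.

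**Figure D3:**
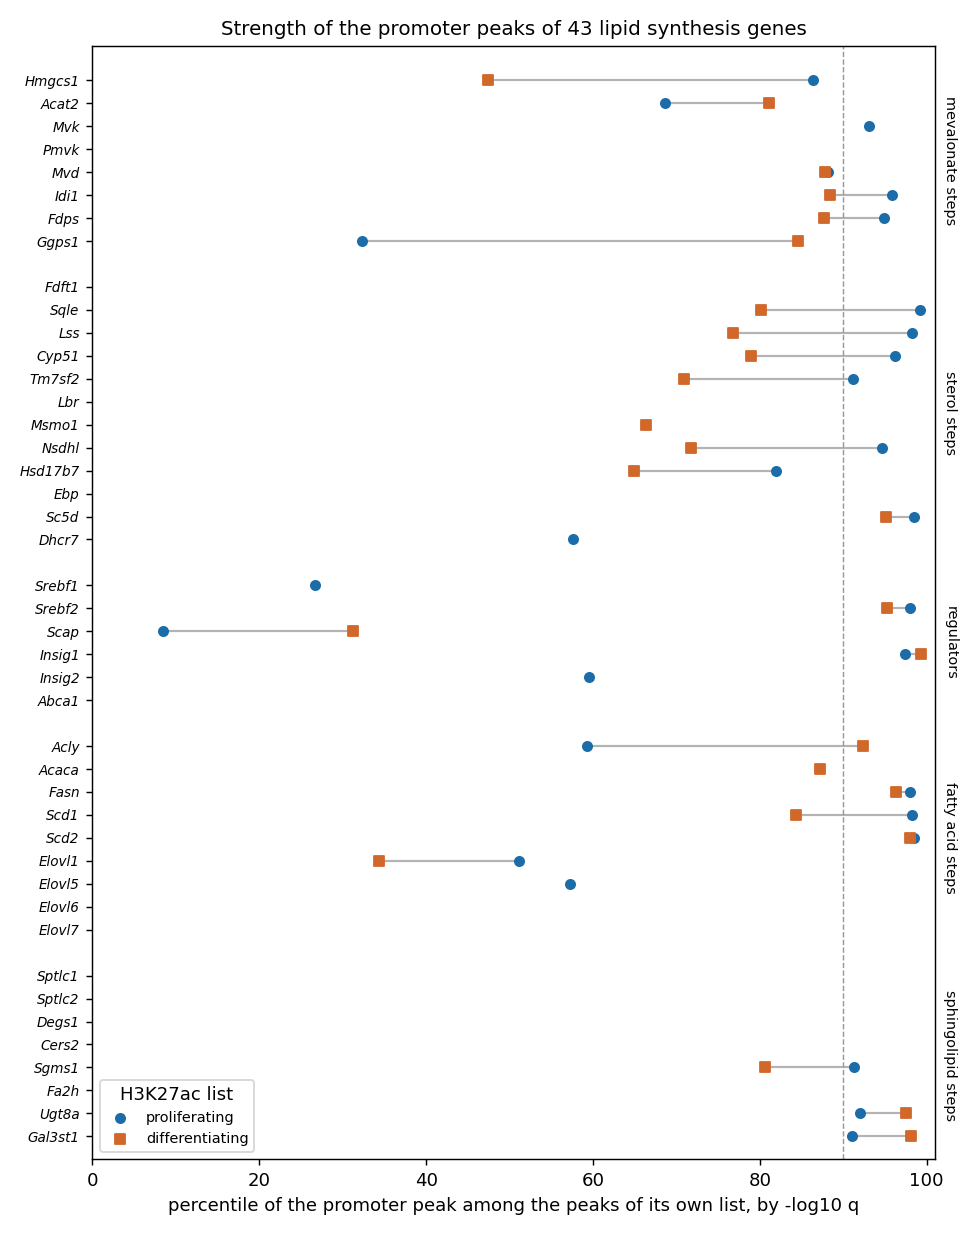
For each lipid gene with a promoter peak, the percentile of the peak among all peaks of its own list by −log10 q is shown for proliferating (blue circles) and differentiating (orange squares) cells, 1 library each, with a line joining the values of a gene and a dashed line at percentile 90. Of the 29 proliferating values 17 lie at or above the dashed line, and of the 26 differentiating values 8 do. A gene with no point had no promoter peak.

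The ranks of the sterol genes differed between the lists in the same direction. Among the 24 lipid genes with promoter peaks in both lists, 17 had the higher percentile in the proliferating list, against 48.8% of the 3867 protein-coding genes with promoter peaks in both. The sterol steps made up 7 of these 17, which is all 7 of their genes found in both lists, with a median difference of 19.1 percentile points (proliferating minus differentiating), where all genes had −0.26. By percentile the count was 4 of 6 for the mevalonate genes, 4 of 5 for fatty acid genes, 1 of 3 for regulators and 1 of 3 for sphingolipid genes. By fold enrichment the same 7 genes were again higher in the proliferating list, and over the 24 lipid genes 16 were, against 61.6% of all genes. The percentiles of all genes spread widely on both sides of equality, and with 1 library per state the direction was not tested.

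**Figure D4:**
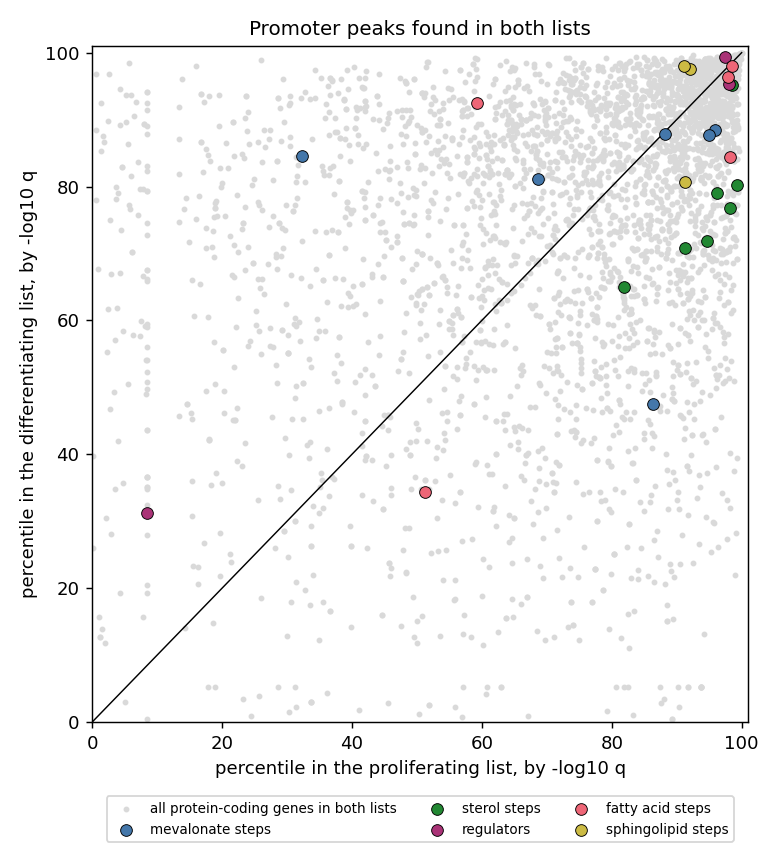
Each point is a protein-coding gene with a promoter peak in both lists, placed by the percentile of that peak in the proliferating (x) and the differentiating (y) list, with the 24 lipid genes coloured by role, the 3867 protein-coding genes in grey and a line where both are equal. All 7 sterol genes lie below the line, and Ugt8a and Gal3st1 lie above it.

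Some promoter peaks were found in 1 list alone. In proliferating cells 5 lipid genes (Mvk, Dhcr7, Srebf1, Insig2 and Elovl5) had a promoter peak that the other list lacked, against 6.13% of all genes. Their median percentile was 57.6, against 93.3 for the 24 genes with peaks in both, and over all genes these medians were 62.7 and 82.0. In differentiating cells Msmo1 and Acaca were alone, at percentiles 66.3 and 87.2, against 10.1% of all genes with a promoter peak in that list alone. For Elovl5 and Msmo1 the other list had a peak within 1000 bp of the TSS. These calls use only the annotated start of each gene. With the TSS of every transcript, 35 lipid genes had a promoter peak in proliferating and 33 in differentiating cells, against 31.3% and 35.3% of all genes. Both lists then held one for 33 (24.5% of all genes), so each gene of the differentiating list was also in the other. Of the 24 genes with peaks in both lists, the peaks overlapped in 23, Scap being the exception. The share over all genes was not computed for this overlap.

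Neither list held a promoter peak for 12 lipid genes, and 5 of these had a peak within 1000 bp of the TSS, on its downstream side (Fdft1, Lbr, Elovl6, Sptlc1 and Degs1). The other 7, Pmvk, Ebp, Abca1, Elovl7, Sptlc2, Cers2 and Fa2h, had no peak within 1000 bp of the TSS in either list. Within gene bodies, 56 peaks of the proliferating list and 53 of the differentiating list overlapped a lipid gene. Of these, 32 and 29 lay outside the promoter region, 14 and 12 on an exon and 18 and 17 in introns alone. No such split was made over all genes. Acaca and Sgms1, the longest of the 43 genes, held 4 peaks each in proliferating and 6 each in differentiating cells.

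CCAAT boxes were more frequent in the promoters of the lipid genes than in all promoters looked at, a share that was not tested. For 35 of the 43 genes RefSeq gave a window of 300 bases (250 before the start site and 50 after it) that began within 1000 bp of the annotated TSS. The windows of 27 genes (77.1%) held CCAAT on either strand, against 38.9% of 14278 protein-coding genes with such a window and 37.7% of those with a promoter peak in both lists. GGGCGG was found in 26 (74.3%), against 51.8% and 71.7%. All 10 windows of sterol genes held GGGCGG and 9 held CCAAT. Of the 35 windows, that of Hmgcs1 alone held the core of the sterol regulatory element, searched in the single form TCACNCCAC, against 1.2% of all windows. The match was TCACCCCAC, 137 bases before the RefSeq start site. Fdps, Fdft1, Sqle, Acaca, Scd1, Scd2, Sgms1 and Fa2h had no such window and were not searched. A match is a run of letters and not a bound site.

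Many lipid gene promoters were CpG-rich. The ratio of observed to expected CpG was at least 0.6 in 25 of the 35 windows (71.4%), against 54.3% of all windows. Among the 25 lipid genes at or above 0.6, 15 had a promoter peak in proliferating and 13 in differentiating cells (60% and 52%). Of all 7757 genes with such windows, 41.3% and 48.6% did. At least 1 list held a peak for 16 and both lists for 12 (64% and 48%), against 57.4% and 32.5%. The distance from the background was thus smaller among CpG-rich promoters, above all in differentiating cells, and the part of CpG content in the counts was not tested. On chromosomes 1, 10 and 15 promoter peaks were more frequent over all genes, at 35.3% in proliferating, 40.2% in differentiating, 48.5% in either and 26.9% in both lists, and 5, 4, 5 and 4 of the 7 lipid genes there had one. On the other chromosomes 24, 22, 26 and 20 of 36 lipid genes did, against 21.9%, 25.7%, 31.5% and 16.1% of all genes.

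A further 60 genes of the same pathways were looked up in the same way, with 17 of sterol transport and control, 20 of fatty acid activation, elongation and desaturation and 23 of sphingolipid metabolism. In proliferating cells 13 of them (21.7%) had a promoter peak, close to the background of 23.7%, and in differentiating cells 31 (51.7%) did, above 27.7%. A peak in the differentiating list alone was found for 19 of the 60 and in the proliferating list alone for 1, while among the 43 lipid genes these numbers were 2 and 5 and over all genes the shares were 10.1% and 6.13%. Hacd1, Cers6, Elovl4, Galc, Fads1 and Acsl4 were among the 19 but had a proliferating peak within 1000 bp past the TSS. Within 1000 bp on either side of the TSS, 25 of the 60 (41.7%) had a peak in proliferating cells, against 26.9% of all genes. In differentiating cells 38 (63.3%) did, against 31.1%, so the difference between the lists was smaller by that window. Of the 60, the 5 with the strongest peaks in both lists by the lower percentile were Fads2, Acsl3, Ormdl3, Stard4 and Cers1. Fads2, the delta-6 desaturase, had fold enrichments of 4.14 and 3.72 (percentiles 98.1 and 95.3). Acsl3, an acyl-CoA synthetase, had 3.35 and 3.29 (percentiles 94.8 and 94.1). Stard4, a carrier of sterol between membranes, stood at percentiles 96.2 and 59.7, Ormdl3, an inhibitor of serine palmitoyltransferase, at 71.6 and 82.7, and Cers1, a ceramide synthase, at 57.3 and 92.7.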

How the data were processed

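H3K27ac ChIP-seq of 2 Oli-neu libraries, 1 per state, was used. Per the methods and the submitters' processing notes, the authors mapped reads to GRCm38/mm10 with Bowtie2 2.1.0, used reads with a unique position, took out PCR duplicates and, for each library separately, used MACS2 2.0.10 to call broad peaks, then dropped those in blacklisted regions. An input library is not given in the sources used here. The deposited lists have no header and hold, for each peak, a text cell with 3 numbers, read in the order of the caller as a ratio (fold enrichment) and then the −log10 of p and of q. The methods give a q-value cutoff of 0.05, yet q was larger for 3.9% of the peaks in proliferating and 11.5% in differentiating cells.

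Genes, starts and exons came from GENCODE M21 on the same build. Any shared base counted as overlap. Calculations used Python 3.11.15, numpy 2.4.6, pandas 2.3.3 and matplotlib 3.10.9, and overlap counting was tested on simulated data. Promoter sequences are from RefSeq (GRCm38.p6), taken from a promoter table that is not complete, and those of Fdps, Fdft1, Sqle, Scd1, Scd2 and Fa2h were not used here. The genes and lists were chosen with earlier results of these data known. Every listed gene is accounted for, those with a promoter peak by its values. In each role the printed promoter is that of the gene in both lists with the highest lower percentile among those with an entry in the promoter table. Of the 60 further genes, 1 was matched through an older symbol (Cert1, as Col4a3bp). No test was run, since each state has 1 library. The result for 1 marker gene is not reported here.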

Additional observations from a re-analysis of the deposited data

How the results depend on the processing

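No paired analysis was possible because each H3K27ac state has 1 library, and the siCtr and siPadi2 samples were not analysed here. Counts are of the 43 lipid genes, as proliferating, differentiating, either and both, and a count is said to move where it changes by more than 1.5 times. Of 54 values under 9 alternatives, 44 did not move. With −log10 q of at least 5, which leaves fewer peaks, promoter peaks were found for 10, 7, 12 and 5 genes, where 3.27%, 4.25%, 5.81% and 1.7% of all genes had one, and gene body peaks for 14, 8 and 16 (all genes 4.62%, 6.07% and 8.28%). With fold enrichment at or above the median of the list, the count in both lists was 13 (all genes 10.9%). With at least 0.5 of the peak inside the promoter region, which peaks lying mainly past the TSS fail by construction, 18 genes were counted in proliferating cells and 13 in both (all genes 13.9% and 7.65%). The other promoter definitions, equal numbers of peaks, q of at most 0.05 and leaving out chromosomes 1, 10 and 15 (these last 2 added after the data were seen) moved no count. Counting the TSS of every transcript gave the highest counts, 35, 33, 35 and 33, and raised the shares of all genes to 31.3%, 35.3%, 42.1% and 24.5%. Peak lists without read counts or replicates limit the precision of each value.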

Other observations

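The fatty acid desaturase genes Fads1, Fads2 and Fads3 lie side by side on chromosome 19 and were looked at after their values were seen. In differentiating cells all 3 had a promoter peak, at percentiles 93.8, 95.3 and 81.5. In proliferating cells only Fads2 did, at percentile 98.1, and the nearest peaks of Fads1 and Fads3 lay 115 bp and 4734 bp from the TSS. The Fads1 peak of that list thus fell just short of the region counted.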
